A study of Homo sapiens with 4 samples.

Results

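The IRF and STAT genes are transcription factors of the interferon and cytokine response. Their expression was read in THP-1 cells, a human monocytic line of leukaemic origin that is widely used as a monocyte model. The genes were chosen by name as IRF1, IRF2, IRF4, IRF5, IRF7, IRF8, IRF9, STAT2 and STAT3, and all probe sets annotated to them were taken. A probe set is a group of short probes that reads part of a transcript. Of the 9 genes, 8 had probe sets in the annotation used, 16 naming that gene alone and 1 shared by IRF9 and RNF31, out of 54675 on the array. STAT2 was not analysed here.

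There were 4 arrays with 1 per condition, so no difference has a replicate behind it, no test was possible, and the number of arrays limits the precision. In 2 of them the cells had been given Pam3CSK4 and co-cultured for 24 h or for 12 h with particles described as platelet-like. These times are those of the source labels and descriptions, while the titles of the same samples end in 25 and 13, numbers that the labels do not explain. Another held cells given Pam3CSK4 alone, for a time not given in the sources used here, and the last held resting cells. Pam3CSK4, a lipopeptide made by synthesis, is a ligand of the TLR1 and TLR2 heterodimer. The cells that gave the particles are not named in the labels.

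IRF proteins bind DNA through a conserved domain with a row of tryptophans, and they recognise repeats of GAAA in the promoters of interferon genes and interferon-stimulated genes. STAT proteins are phosphorylated by Janus kinases at cytokine receptors, pair up and enter the nucleus. IRF9 joins both families: together with STAT2 and another STAT protein it forms ISGF3, the complex that switches on antiviral genes after type I interferon. In monocytes and macrophages these factors carry signals from Toll-like receptors, interferons and interleukins, and IRF8 also sets the lineage itself.

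The values are log2 and were scaled to a common distribution, with array medians between 6.17 and 6.22. A level is compared only between arrays for the same probe set, since probe sets differ in brightness. The median of all values, 6.19, served as filter level, and a gene was tested if its brightest probe set, by mean over the arrays, reached it on 1 array or more. This left 13410 of 19775 genes, among them the 8 IRF and STAT genes. Of the 16 probe sets, 13 reached the level and 3 did not on any array. Genes were called past a 2-fold difference (1 in log2 units).

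Of the monocyte markers, 9 of 12 were named, and 8 of these were at or above the filter level on each array. Their summed log2 level was 96.2 at 24 h, 91.1 at 12 h, 95.2 with Pam3CSK4 and 84.3 on the resting array. The megakaryocyte and platelet markers, 10 of 12 named, summed to 58.9, 60.1, 57.7 and 59.4 on the same arrays, with no marker above 7.58. Markers of plasmacytoid dendritic cells, which are known for high IRF7, summed to 36.8 at 24 h, 37.4 at 12 h, 36.7 with Pam3CSK4 and 36.1 at rest over 6 of 6 genes. Their defining gene CLEC4C lay between 4.04 and 4.07, below the filter level throughout. The sums hide opposite directions between Pam3CSK4 and rest. NRP1 was higher with Pam3CSK4 by 1.999, from a resting value below the filter level, so this size depends on background. IL3RA, LILRA4, GZMB and TCL1A were lower, by -0.65, -0.35, -0.32 and -0.11. GZMB and TCL1A were below the filter level on every array. Markers of conventional dendritic cells, 7 of 8 named, summed to 47.1 at 24 h, 50.3 at 12 h and 46.8 with Pam3CSK4, against 43.2 at rest. Among them LAMP3, a gene of mature dendritic cells, gave 8.48, 11.00 and 8.52, against 5.82 at rest, while FCER1A and XCR1 stayed below the filter level on every array. LAMP3 had the largest differences of the list, 2.70 for Pam3CSK4 against rest and 2.48 for 12 h against Pam3CSK4. CD1C, CCR7 and CLEC10A were also higher with Pam3CSK4 than at rest. FLT3 went the other way, with 8.64 against 9.21 at rest, and XCR1 and FCER1A were lower too. The 6 fibroblast markers summed to 41.4 at 24 h, 42.4 at 12 h and 41.1 with Pam3CSK4, against 36.3 at rest. The largest Pam3CSK4 difference, 4.01, was in the proteoglycan gene LUM. Its resting value was below the filter level, so the size of this difference depends on background. DCN was also higher with Pam3CSK4 than at rest, by 1.37. COL1A1, COL1A2, COL3A1 and PDGFRB were lower, with differences from -0.31 to -0.05, and COL3A1 was below the filter level on every array. Sums of the remaining lists differed less than those of the conventional dendritic cell and fibroblast lists. B lymphocyte markers summed to between 31.7 and 32.5, T and NK lymphocyte markers to between 54.91 and 54.99 and endothelial markers to between 37.7 and 39.1. Globin and erythroid markers summed to between 43.04 and 45.2. Among these HBE1 gave 7.50 at 24 h and 6.30 at 12 h. It gave 5.45 with Pam3CSK4 and 5.42 at rest, both below the filter level. The part of other cells in the results was not tested. In a bulk sample, fewer cells of a type and less RNA per cell cannot be told apart. RNA integrity was read from the GAPDH control probes, as the 3' minus the 5' value. This was 0.70 log2 at 24 h, 0.92 at 12 h and 0.59 with Pam3CSK4, against 2.16 on the resting array. The ACTB control probes gave 2.90 at 24 h, 3.17 at 12 h and 2.91 with Pam3CSK4, against 3.41 at rest. Both were highest at rest and, among the treated arrays, highest at 12 h, so this sign moved with the comparison of Pam3CSK4 and rest and with the 12 h values, and its part in either was not tested.

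**Figure D1:**
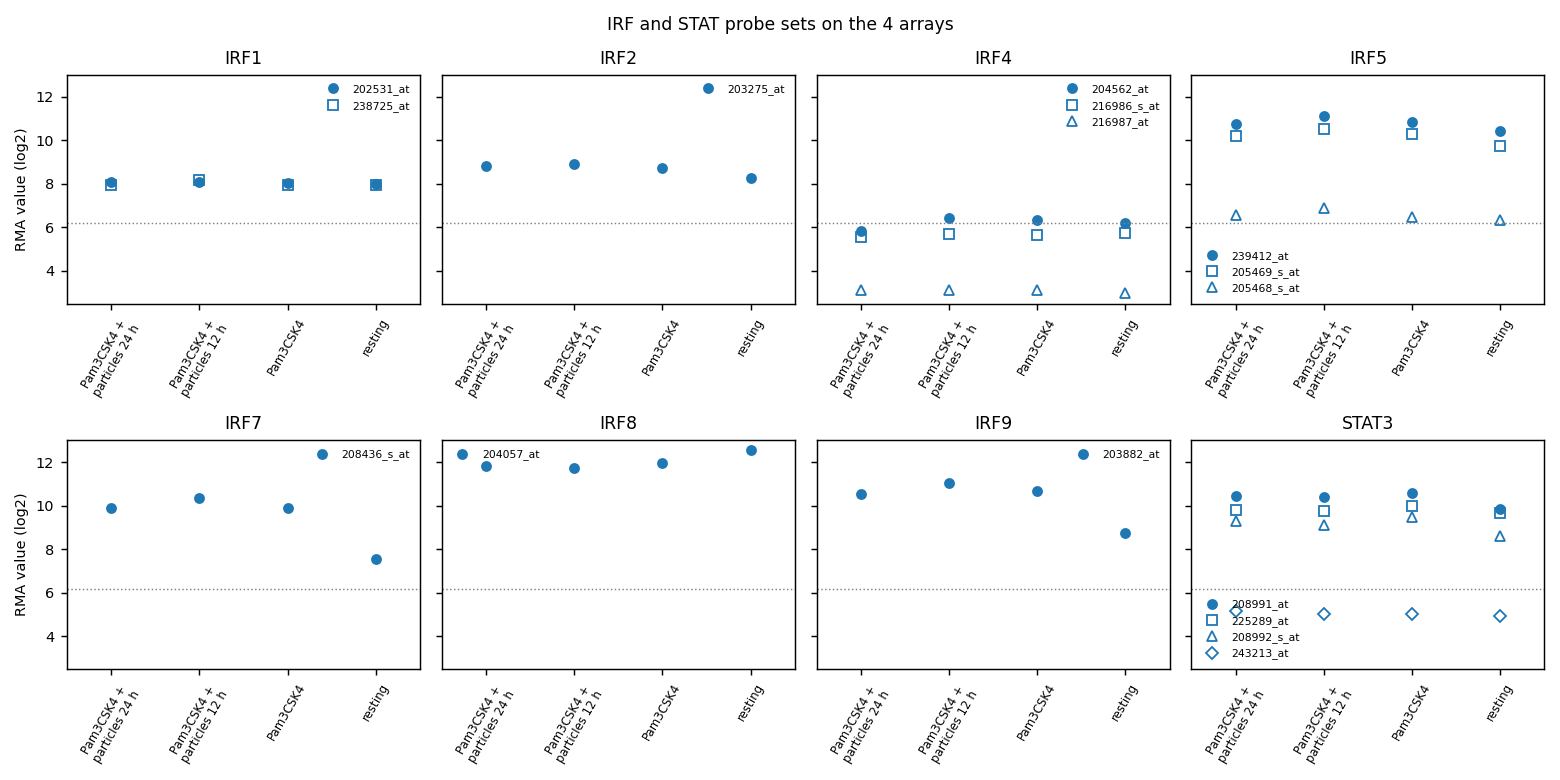
RMA values (log2) of the 16 probe sets that name a single IRF or STAT gene, with 1 panel per gene and 1 point per array; the x axis gives the array, filled symbols mark the probe set of highest mean and the dotted line is the filter level of 6.19. IRF7 and IRF9 stood lowest on the resting array, at 7.56 and 8.73, IRF8 stood highest there at 12.55, and the IRF1 points lay between 7.94 and 8.17 on all arrays.

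Pam3CSK4 against rest asked how the lipopeptide shifted these factors. IRF7 and IRF9 were called higher, and 0 of the 8 genes were called lower. The share of all 13410 genes called in this comparison was 5.85% in either direction, with 4.14% higher and 1.71% lower. At 1.5-fold, 4 of the 8 passed, adding STAT3 on the higher side and IRF8 on the lower side, where 13.5% of all genes passed. The median difference of the 8 genes was 0.45 log2, against -0.05 for all genes. In the comparison of 12 h co-culture and Pam3CSK4 alone, 0 of the 8 were called, against 0.761% of all genes. The median was 0.14 for the 8 genes and -0.05 for all genes. At 24 h against Pam3CSK4, 0 of the 8 were called, against 0.0298% of all genes, and the median was -0.11, against -0.01 for all genes. The time of the Pam3CSK4 array is unknown, so time and particles cannot be told apart in the co-culture comparisons.

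IRF7 is the factor that amplifies type I interferon production. Its single probe set stood at 9.90 log2 at 24 h, 10.34 at 12 h and 9.90 with Pam3CSK4, against 7.56 on the resting array. The 3 arrays of Pam3CSK4-treated cells thus lay apart from the resting one, and the 12 h array was the highest. The difference of Pam3CSK4 and rest was 2.35 log2, or 5.08-fold, and 145 of the 13410 genes had a larger positive difference. At 12 h against Pam3CSK4 it differed by 0.43 log2, or 1.35-fold, which lay above the 95th percentile of all genes, 0.39. At 24 h against Pam3CSK4 it differed by -0.01, and 94.2% of genes had a larger absolute difference. No other probe set names IRF7 alone, and its suffix _s_at marks probes that can bind related transcripts.

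IRF9, the DNA-binding subunit of ISGF3, had its arrays in the same order as IRF7. Its own probe set gave 10.54 log2 at 24 h, 11.04 at 12 h and 10.68 with Pam3CSK4, against 8.73 at rest. The Pam3CSK4 array exceeded the resting one by 1.95 log2, or 3.87-fold, with 201 genes above it. The 12 h array exceeded Pam3CSK4 by 0.36 log2, or 1.28-fold, and the 24 h array was 0.14 lower than Pam3CSK4. The probe set shared with RNF31, a ubiquitin ligase subunit encoded next to IRF9, behaved differently: it gave 8.40 at 24 h, 8.28 at 12 h and 8.44 with Pam3CSK4, against 8.18 at rest. It cannot be assigned to IRF9 alone, and its Pam3CSK4 difference was 0.25 log2.

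IRF1 is an activator that is induced by interferon-gamma in many cells, and IRF2 is its antagonist at shared sites. IRF1 was nearly flat on both of its probe sets. The brighter one read 8.06 log2 at 24 h, 8.08 at 12 h and 8.06 with Pam3CSK4, against 7.98 at rest, a Pam3CSK4 difference of 0.08. The other read 7.96, 8.17 and 7.96, against 7.94 at rest, a Pam3CSK4 difference of 0.01. That second probe set was 0.21 log2 higher at 12 h than with Pam3CSK4, against 0.02 on the brighter one. IRF2 gave 8.84 at 24 h, 8.93 at 12 h and 8.75 with Pam3CSK4, against 8.28 at rest. The treated arrays lay above the resting one by 1.38-fold or 0.46 log2 for Pam3CSK4 alone, which was inside the range from the 5th to the 95th percentile of all genes, -0.63 to 0.86.

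The promoters of IRF9 and IRF1 are shown because both genes carry the same type of STAT site while their Pam3CSK4 differences stood far apart, 1.95 and 0.08 log2. The 250 bases before the start of each gene came from the RefSeq promoter table of GRCh38.p14, which matched 7 of the 9 genes with 11 windows. IRF2 and IRF7 are not among the 7. Capitals mark motif matches in windows printed 5′ to 3′ on the strand of the gene. IRF9 is read from chr14:24161015-24161264, plus strand, and IRF1 from chr5:132490774-132491023, minus strand.
IRF9: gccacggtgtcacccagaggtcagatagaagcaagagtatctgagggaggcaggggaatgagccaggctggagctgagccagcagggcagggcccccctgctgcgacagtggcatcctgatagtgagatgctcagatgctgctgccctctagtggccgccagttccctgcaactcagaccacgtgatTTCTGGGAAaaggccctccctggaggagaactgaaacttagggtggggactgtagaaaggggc
IRF1: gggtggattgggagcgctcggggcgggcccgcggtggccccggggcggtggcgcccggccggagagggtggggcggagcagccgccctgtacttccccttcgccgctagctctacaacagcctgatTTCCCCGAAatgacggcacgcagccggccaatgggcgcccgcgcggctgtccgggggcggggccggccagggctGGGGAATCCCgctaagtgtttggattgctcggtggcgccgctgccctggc
Motifs were searched on both strands as the core of the STAT site known as GAS, TTCNNNGAA, the core of the interferon response element, which is GAAA, any 2 bases and GAAA, and the kB consensus. In IRF9 the capitals are a GAS core, TTCTGGGAA, 63 to 55 bases before the start. IRF1 has the GAS core TTCCCCGAA 124 to 116 bases before its start, and its second capital run is a kB match, GGGGAATCCC, 50 to 41 bases before it. The GAS core was present in 6.57% of all 35116 windows of this length, the interferon response core in 3.02% and the kB consensus in 9.96%. None of the 3 motifs overlapped another in these windows. Among the 7 genes, 2 had a GAS core, 0 the interferon response core and 1 the kB consensus. The windows of IRF4, IRF5, IRF8, STAT2 and STAT3 held none of these letters, which says nothing about binding of a factor.

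IRF5 and IRF4 both bind the adaptor MyD88: IRF5 drives inflammatory cytokine genes downstream of Toll-like receptors, and IRF4 competes with it and serves in lymphocytes and macrophages. IRF5 had 3 probe sets above the filter level. The brightest gave 10.76 log2 at 24 h, 11.13 at 12 h and 10.84 with Pam3CSK4, against 10.41 at rest. The next gave 10.19, 10.50 and 10.30, against 9.74 at rest. The dimmest gave 6.57, 6.90 and 6.49, against 6.34 at rest. All 3 were highest at 12 h and lowest at rest. Their Pam3CSK4 differences ran from 0.14 to 0.56 log2, and those of 12 h against Pam3CSK4 from 0.20 to 0.41. The differences of 24 h against 12 h lay close together, between -0.37 and -0.31.

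IRF4 was near or below the filter level on each array. Its brightest probe set gave 5.84 log2 at 24 h, 6.43 at 12 h and 6.32 with Pam3CSK4, against 6.197 at rest. The 24 h array stood alone at the bottom, 0.48 log2 below Pam3CSK4, and 6 of the 13410 genes had a more negative difference. Its other probe sets were under the filter level on every array. One gave 5.58 at 24 h and 5.63 with Pam3CSK4, and the other gave 3.10 on both. The 24 h difference thus rested on 1 probe set of 3, whose 24 h value was itself below the filter level.

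IRF8, a factor that commits progenitors to the monocyte and dendritic lineages, was the 1 gene of the 8 lower with Pam3CSK4 than at rest. It gave 11.81 log2 at 24 h, 11.75 at 12 h and 11.95 with Pam3CSK4, against 12.55 at rest. The treated arrays lay together below the resting array. Pam3CSK4 and rest differed by -0.60 log2, 1.52-fold lower, short of the 2-fold call, and 12.9% of genes had a larger absolute difference. The 12 h and 24 h arrays differed from Pam3CSK4 by -0.20 and -0.13, and with cyclic loess, another scaling, the 12 h difference was -0.09.

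STAT3 transmits signals of the interleukin-6 and interleukin-10 families. Its brightest probe set gave 10.46 log2 at 24 h, 10.41 at 12 h and 10.59 with Pam3CSK4, against 9.84 at rest. The other probe sets above the filter level gave 9.82, 9.76 and 9.96, against 9.66 at rest, and 9.29, 9.13 and 9.49, against 8.60 at rest. On all 3 the Pam3CSK4 array was the highest and the resting array the lowest, the 12 h array being the lowest of the treated ones. The Pam3CSK4 differences were 0.75, 0.31 and 0.89 log2, so their size depended on the probe set. Those of 12 h against Pam3CSK4 ran from -0.36 to -0.18, and those of 24 h from -0.20 to -0.13. With cyclic loess the 12 h difference of the brightest probe set was -0.07 instead of -0.18. The remaining probe set, between 4.92 and 5.16 on all arrays, stayed under the filter level.

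**Figure D2:**
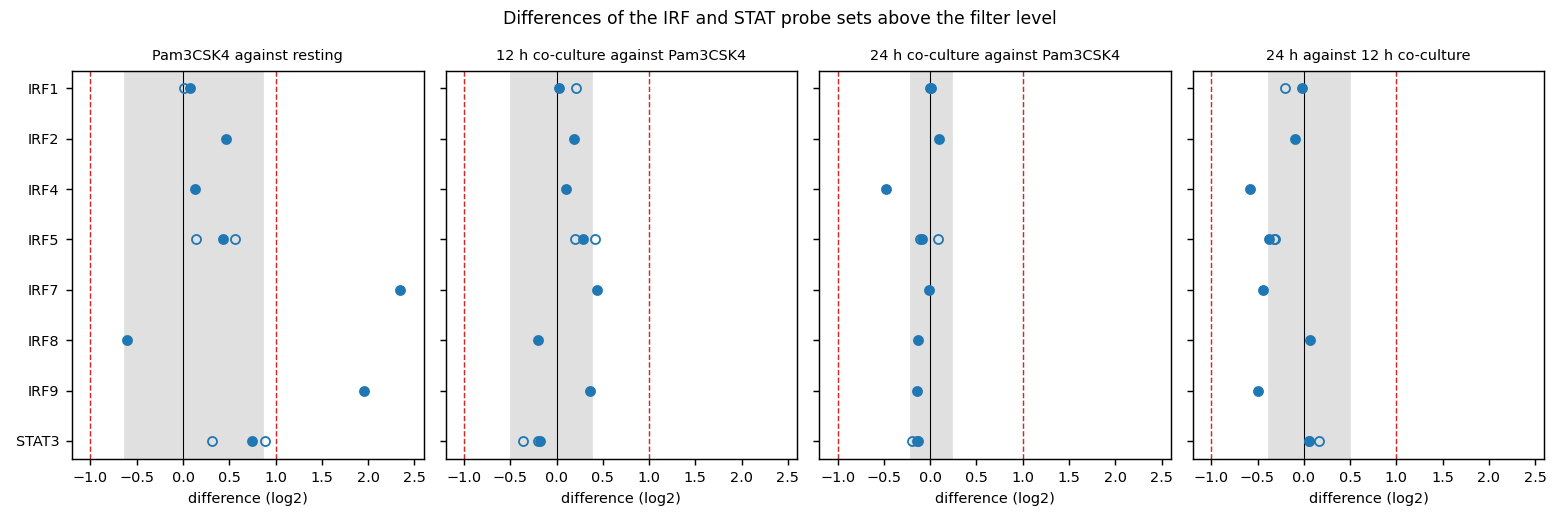
Differences (log2, first-named array minus second) of the 13 probe sets above the filter level, by gene from top to bottom; filled points are the probe set of highest mean, grey bands run from the 5th to the 95th percentile of all 13410 genes and dashed lines mark 2-fold. IRF7 at 2.35 and IRF9 at 1.95 lie beyond 2-fold for Pam3CSK4 against resting, and IRF4 at -0.48 lies outside the band for 24 h against Pam3CSK4.

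Among the treated arrays the 12 h one held the highest value for 6 of the 8 genes: IRF1, IRF2, IRF4, IRF5, IRF7 and IRF9. For all tested genes this share was 33.6%, and the 12 h array was the lowest of the 3 for 50.2%. STAT3 and IRF8 had the 12 h array at the bottom. At 24 h against 12 h, 0 of the 8 genes were called, against 0.567% of all genes, and the median was -0.23 log2, against 0.04 for all genes. IRF4 differed by -0.58, IRF9 by -0.50, IRF7 by -0.44 and IRF5 by -0.37, while the 5th percentile of all genes was -0.38. IRF8 and STAT3 differed by 0.06 and 0.05, and both signs turned with cyclic loess, to -0.04 and -0.05. Both co-culture differences are taken from 1 Pam3CSK4 array, so their values are not independent.

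A further 5 IRF and STAT genes were measured. IRF3, the constitutive partner of IRF7 in interferon induction, stood at 8.70 log2 at 24 h, 8.45 at 12 h and 8.79 with Pam3CSK4, against 9.05 at rest. STAT4, which carries interleukin-12 signals, read 6.54 at 24 h and 7.84 at 12 h, against 6.56 with Pam3CSK4 alone. Its resting value of 5.99 was below the filter level. STAT4 was the 1 gene of these 5 called at 12 h against Pam3CSK4, at 1.28 log2 on its single probe set, and it was 1.30 lower at 24 h than at 12 h. STAT5A, a factor of growth factor receptors, differed by 0.57 between Pam3CSK4 and rest, its relative STAT5B by 0.03 and the interleukin-4 factor STAT6 by 0.45. At 12 h against Pam3CSK4 those 3 differed by 0.29, 0.20 and -0.24. For Pam3CSK4 against rest 0 of the 5 were called, with a median of 0.45 log2.

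Upstream of the factors, 6 of 13 measured cytokine receptors were called higher with Pam3CSK4 than at rest and 0 lower, with a median of 0.77 log2 against -0.05 for all genes. For this and the later lists, 4.14% of all genes were called higher and 1.71% lower, and 0.761% were called at 12 h against Pam3CSK4. Of the 6 receptors called, 1 had another probe set short of 2-fold, and IFNAR1, not called, had another at 1.04. The interleukin-10 receptor gene IL10RA, which signals to STAT3, gave 11.16 at 24 h, 11.84 at 12 h and 11.25 with Pam3CSK4, against 7.85 at rest, and differed by 3.39 between Pam3CSK4 and rest. IL27RA differed by 1.99, the shared beta chain gene CSF2RB by 1.55 and the interferon-gamma receptor gene IFNGR1 by 1.35. The Janus kinases were nearer to their resting level: TYK2 differed by 0.62, JAK2 by 0.28 and JAK1 by 0.26, and 0 of 3 were called. Of 7 measured cytokine ligands, out of 16 named, 2 were called higher, EBI3 and IL23A. The interferon genes IFNB1, IFNA1, IFNA2, IFNG, IFNL1 and IFNW1 were under the filter level on every array. EBI3, a subunit of interleukin-27, stood at 5.67 at rest, below the filter level, and at 11.84 with Pam3CSK4. In the chain from Toll-like receptors to IRF proteins, 1 of 12 was called higher with Pam3CSK4, the kinase gene IKBKE, with 10.03 on the Pam3CSK4 array against 8.53 at rest. TASL, an adaptor that recruits IRF5, was the 1 of the 12 called lower at 12 h against Pam3CSK4, at -1.03. It gave 10.77 at 24 h, 9.86 at 12 h and 10.89 with Pam3CSK4, against 11.35 at rest.

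Inhibitors showed no shared direction, with a median of -0.04 log2 for Pam3CSK4 against rest, 1 of 17 called higher and 1 lower. For SOCS3, which blocks signalling to STAT3, the call depended on the probe set: its Pam3CSK4 difference was -0.17 on the brightest, which stood for the gene, and ran up to 2.79 over 3 probe sets. USP18, which restrains the type I interferon receptor, differed by 1.05. SOCS2, a suppressor of cytokine signalling, gave 6.23 at 24 h, 6.35 at 12 h and 5.23 with Pam3CSK4, against 6.72 at rest. The Pam3CSK4 value of SOCS2 alone was below the filter level, so the size of its differences, -1.49 for Pam3CSK4 against rest and 1.13 for 12 h against Pam3CSK4, depends on background. Among DNA-binding partners and cofactors, 5 of 16 were called higher with Pam3CSK4 and 0 lower, with a median of 0.29. The repressor gene BCL6 differed by 2.45, SPIB by 1.67, IFI35 by 1.57 and JUN by 1.45. Over their several probe sets JUN ran from 0.60 to 1.86, BCL6 from 1.12 to 2.45 and SPIB from 1.02 to 1.67. SPI1, whose protein PU.1 recruits IRF4 and IRF8 to DNA, differed by 0.26.

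Downstream, the known targets of ISGF3 were nearly all called: 24 of 25 were higher with Pam3CSK4 than at rest, 0 lower, and the median was 2.08 log2. Their 12 h differences from Pam3CSK4 had a median of 0.67, with 3 of 25 called, and their 24 h differences a median of 0.13, with 0 called. OAS3, a sensor of double-stranded RNA, gave 11.11 at 24 h, 12.37 at 12 h and 11.14 with Pam3CSK4, against 7.37 at rest. OAS3 was among the 3 of 25 targets with the array order of IRF7. In 19 the 24 h array was above the Pam3CSK4 one, with 12 h highest and rest lowest. The 24 h difference from Pam3CSK4 that sets this order was -0.01 for IRF7 and -0.03 for OAS3, both next to 0. IFI44L, the target with the largest Pam3CSK4 difference, gave 9.81 at 24 h, 10.91 at 12 h and 9.61 with Pam3CSK4, against 4.65 at rest, which is below the filter level. Of the 25 genes, 6 were under the filter level at rest, where the size of a difference depends on background, and 4 of the 24 called had another probe set short of 2-fold. Interferon-gamma-type targets linked to IRF1 had 8 of 19 called higher with Pam3CSK4, 0 lower and a median of 0.49, with GBP5 at 2.11. Of these 19, 5 were under the filter level at rest. STAT3 targets had 4 of 18 called higher, 0 lower and a median of 0.35, a further 2 not called, SOCS3 and CEBPD, having another probe set past 2-fold. The list was led by BCL6, which also counts among the partners, and VEGFA, with 11.18 with Pam3CSK4 against 9.58 at rest. Over 4 probe sets VEGFA differed by 0.45 to 1.60.

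Targets linked to IRF4 and IRF5 had 5 of 8 called higher with Pam3CSK4, 0 lower and a median of 1.27 log2. Of the 5 called, 3 had another probe set short of 2-fold. PRDM1, a repressor that acts with IRF4 in plasma cells, differed by 2.71 on its brightest probe set, but by 0.45 to 2.71 over 3 probe sets. At 12 h against Pam3CSK4, 1 of the 8 was called, the chemokine gene CCL22 at 1.31, and it was 1.33 lower at 24 h than at 12 h. Targets linked to IRF8 had 6 of 12 called higher with Pam3CSK4 and 0 lower, with a median of 1.09, while IRF8 itself was 0.60 lower. Of the 6 called, 2 had another probe set short of 2-fold, and EGR1, not called, had another at -1.07. The protease gene CTSS differed by 1.67 and the chemokine gene CCL5 by 1.81. At 12 h and at 24 h against Pam3CSK4, 0 of the 12 were called. Genes such as BCL6, IL23A and IFI35 stand in more than 1 list, so the lists are not independent, and the lists give the levels of known targets, not the activity of a factor.

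**Figure D3:**
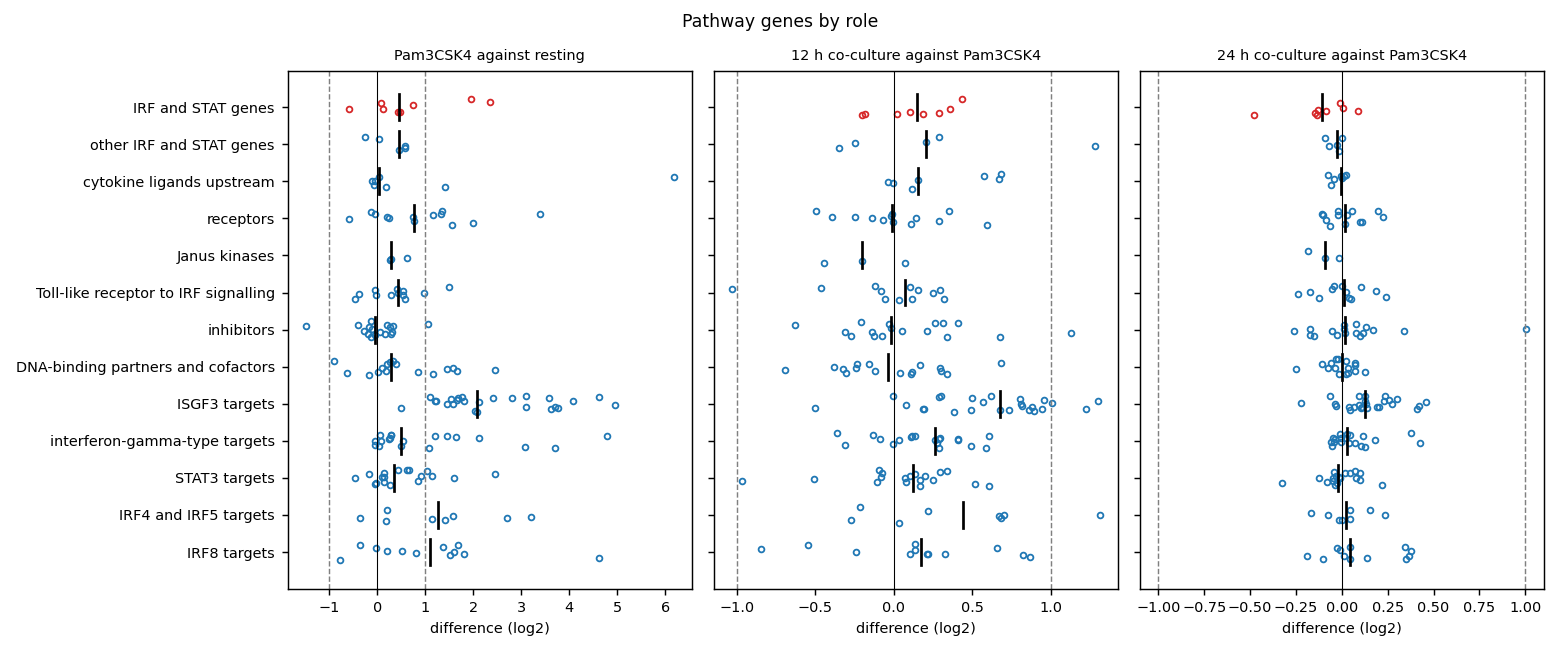
Differences (log2, first-named array minus second) of the measured genes of each role, with 1 circle per gene, the IRF and STAT genes in red, a black tick at each list's median and dashed lines at 2-fold; the x axes differ in scale between panels. The ISGF3 targets have a median of 2.08 for Pam3CSK4 against resting, 0.67 for 12 h against Pam3CSK4 and 0.13 for 24 h against Pam3CSK4.

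Genes with the most similar profile were found by the Euclidean distance between the 4 log2 values of 2 genes, each after subtracting its own mean over the 4 arrays. For IRF7 the nearest were PARP9, which works with an interferon-induced ubiquitin ligase, at a distance of 0.11 log2, and TMEM138 at 0.12. PARP9 differed by 2.37 between Pam3CSK4 and rest and by 0.53 between 12 h and Pam3CSK4. Only 14 of the other 13409 genes lay within 0.25 log2 of IRF7, and 24 lay within that distance of IRF9. IRF9 was nearest to SHROOM3 at 0.07 and COL4A2 at 0.10. IRF7 and IRF9 were 0.41 apart, with IRF9 the gene at rank 55 from IRF7.

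The other profiles were less distinct. IRF5 lay nearest to GIT2 and EEPD1, both at 0.03, and IRF2 to CORO1C at 0.03 and CYB5A at 0.04. IRF2 and IRF5 were the closest pair among the 8, at 0.20. STAT3 lay nearest to RAB24 at 0.01 and HLA-G at 0.04, and IRF8 to SIX3-AS1 and SAPCD2, both at 0.04. IRF4 lay nearest to CFAP206 at 0.07 and MOGAT2 at 0.09. IRF1, with its flat profile, had 5287 genes within 0.25 log2, the nearest being SCART1 and ZBTB39 at under 0.01. With 4 arrays, likeness of profile is a description only.

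**Figure D4:**
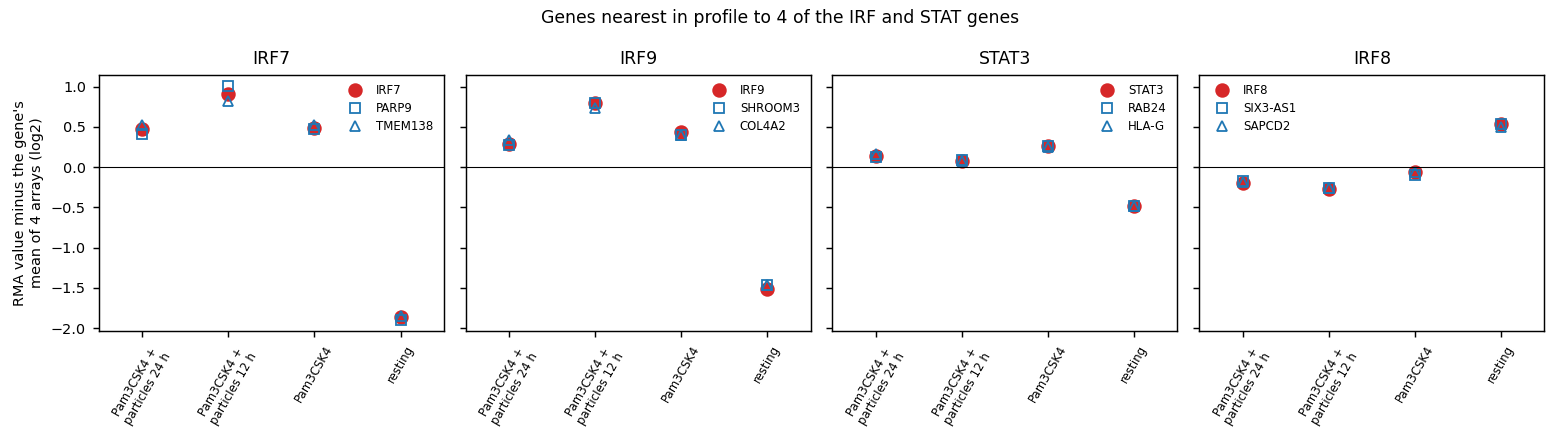
Values minus each gene's mean over the 4 arrays (log2, y axis) on each array (x axis) for IRF7, IRF9, STAT3 and IRF8 (red) and the 2 genes nearest to each in profile (blue open symbols). PARP9 and TMEM138 follow IRF7 within a distance of 0.11 and 0.12 log2, and the resting array is the lowest for IRF7, IRF9 and STAT3 and the highest for IRF8.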

How the data were processed

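Total RNA of 4 THP-1 cultures was read on Affymetrix arrays after biotin labelling, as the labels' protocols state. The deposited values are log2 values that the authors made with RMA in affy 1.28.1, per the submitters' processing notes. RMA removes background, gives every array the same distribution of values and combines each set's probes, so a global shift in RNA cannot be seen and low differences are compressed. Genome build and detection calls are not given in the sources used here.

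Groups came from the source labels. After 62 control probe sets were set aside, the platform annotation named 1 gene for 41091 probe sets, several for 1801, and did not list 11721. The RefSeq table of GRCh38.p14 held the gene identifiers of 41037 and updated 0 symbols. The brightest probe set by mean stood for its gene. Each comparison is a difference of 2 log2 values, with no test at 1 array per group. Calls used 2-fold, counting was tested on simulated data, and the alternatives are those of the closing section (limma 3.58.1 in R 4.3.3 for cyclic loess, 3 iterations, otherwise Python 3.11.15, numpy 2.4.6, pandas 2.3.3 and matplotlib 3.10.9). Members and lists were chosen with earlier results of these data known. Named genes are the members, the remaining IRF and STAT genes, up to 4 genes with the largest differences per list and comparison past 2-fold, and the 2 nearest profiles per member. SPI1, TYK2, JAK1, JAK2, IFNAR1, SOCS3, CEBPD, EGR1, RNF31, the interferon genes and the marker genes are outside that rule. They were named after their values were seen.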

Additional observations from a re-analysis of the deposited data

Results flagged for a closer look

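The 24 h and 12 h arrays differed from the Pam3CSK4 array in opposite directions for 4 of the 8 genes. The share of all genes with opposite directions was not counted, so 4 of 8 was not set against a background. The differences of 24 h minus 12 h were -0.58 log2 for IRF4, -0.37 for IRF5, -0.44 for IRF7 and -0.50 for IRF9. With 1 array per time these differences were not tested, and both sides share the Pam3CSK4 array. For IRF7 the 24 h side was -0.01, next to 0. For IRF5 it was -0.08 on the brightest probe set and 0.08 on the dimmest.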

How the results depend on the processing

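The alternatives comprised dropping the filter, raising it to the 75th percentile, averaging probe sets per gene, leaving out those with names in _x_at or _s_at, cyclic loess, and calls at 1.5-fold or 3-fold. Of 212 differences of single IRF and STAT genes under them, 2 changed sign: IRF8 and STAT3 at 24 h against 12 h, to -0.04 and -0.05 with cyclic loess. The filter and fold settings cannot change a gene's difference, and leaving out _x_at and _s_at names left those of the remaining genes as they were. Averaging can change only genes with several probe sets, so 2 of 212 is not a measure of stability. At 12 h against Pam3CSK4 cyclic loess gave -0.09 for IRF8, -0.07 for STAT3 and 0.05 for IRF4, against -0.20, -0.18 and 0.10 in the deposited scaling. The remaining genes had larger differences with cyclic loess. IRF7 gave 0.53 against 0.43, IRF9 0.47 against 0.36 and IRF5 0.40 against 0.29. IRF2 gave 0.26 against 0.19 and IRF1 0.07 against 0.02. For Pam3CSK4 against rest, 1 of the genes was called when _x_at and _s_at names were left out, as IRF7 then has no value, and 4 at 1.5-fold. In the other comparisons the count of called IRF and STAT genes was 0 under all 7 settings. IRF4 has no value with the 75th percentile filter or with averaged probe sets, since fewer genes pass.

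Over all genes, calls at 1.5-fold numbered 1807 for Pam3CSK4 against rest, 638 for 12 h against Pam3CSK4, 23 for 24 h against Pam3CSK4 and 606 for 24 h against 12 h. At 3-fold they were 377, 18, 2 and 10. With averaged probe sets they were 63 for 12 h against Pam3CSK4, 1 for 24 h against Pam3CSK4 and 43 for 24 h against 12 h. The 75th percentile filter left 1 for 24 h against Pam3CSK4. The wider and narrower fold thresholds change the counts by construction, and the cause of the other changes was not tested. No paired analysis was possible because each group has 1 array. With 1 array per condition, differences near the spread of all genes cannot be told from error.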
